A study of Mus musculus with 12 samples.

Results

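Epithelium of the ileum and epithelium of the colon were set against each other in mice that lack the transcription factor NFAT5 in the intestinal epithelium. The members are the 3 arrays of ileal epithelial cells (S-IECs) and the 3 arrays of colonic epithelial cells (L-IECs) labelled Nfat5IEC-KO, 6 of the 12 arrays of the series. They were chosen by their labels, and every transcript cluster with a gene symbol was examined, 25341 of 41345 clusters in the table. The other 6 arrays, 3 of S-IECs and 3 of L-IECs from Nfat5fl/fl mice, gave the same regional difference with Nfat5 present.

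RNA was hybridized to Affymetrix arrays that cover whole transcripts of mouse genes, where a transcript cluster is a group of probes for 1 gene. The Nfat5IEC-KO mice carried floxed Nfat5 alleles and Cre recombinase under the Villin promoter (Vil-Cre), which is active in the epithelium of both regions, and the Nfat5fl/fl mice carried the floxed alleles without Cre. All mice were 11 weeks old and untreated, and the cells had been released from ileum and colon with EDTA, a procedure that enriches epithelium but does not purify it. Each array is titled with 1 numbered mouse. The sources used here do not say whether the same number in S-IECs and L-IECs marks the same mouse, so the p-values measure the spread between these samples.

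The ileal epithelium digests and absorbs, takes bile acids back from the lumen, and carries Paneth cells, which release antimicrobial proteins at the crypt base. The colonic epithelium lacks villi and typical Paneth cells, recovers salt and water, and holds many goblet cells, which secrete the mucus. NFAT5 is best known as the factor that switches on osmoprotective genes when cells meet hypertonic stress.

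Values are log2 expression levels as deposited, and a regional difference is the mean of S-IECs minus the mean of L-IECs on that scale, so a positive value is higher in ileum. The differences were tested with limma on all 12 arrays with Benjamini-Hochberg adjustment over the 25341 clusters, and a cluster was called at an adjusted p under 0.05 with at least a 2-fold difference. The regional difference in Nfat5IEC-KO minus that in Nfat5fl/fl is named the shift here, and a positive shift means that ileum stood higher relative to colon without Nfat5. All p-values of single genes below come from that limma fit. Arrays of 1 group correlated across clusters with Pearson r of 0.988 to 0.992. On the first principal component, which held 72.2% of the variance, the S-IECs Nfat5IEC-KO arrays lay at −58.43, −51.28 and −55.79, the S-IECs Nfat5fl/fl arrays at −48.28, −39.45 and −39.98, and the 6 L-IECs arrays between 46.22 and 50.37. Replicate 2 of S-IECs Nfat5IEC-KO was the array of its group nearest to the Nfat5fl/fl arrays. Some of the results that turn on it, but not all, are given without it as well.

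Nfat5 itself (GRCm38.p6 chr8:107293435-107379517) had levels of 8.09, 7.84 and 8.02 in the S-IECs arrays labelled Nfat5IEC-KO and of 6.92, 6.90 and 6.997 in the L-IECs arrays labelled Nfat5IEC-KO. Its regional difference was 1.04 (standard error 0.10, adjusted p = 2.41e-06), against 0.58 in Nfat5fl/fl (adjusted p = 0.000621). The levels in Nfat5fl/fl were 8.03, 8.03 and 8.17 in S-IECs and 7.49, 7.45 and 7.54 in L-IECs. Thus the L-IECs labelled Nfat5IEC-KO were lower than their controls without overlap, by a log2 difference of −0.55, whereas the S-IECs overlapped theirs (−0.10). The sources used here do not place the probes on exons, so the cluster may not test the deletion, and the genotype of the S-IECs arrays rests on their label.

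In Nfat5IEC-KO arrays, 1724 clusters were called between the regions. Of these, 723 were higher in ileum, 2.85% of all clusters, and 1001 were higher in colon, 3.95%. The 6 arrays did not overlap between the regions in 1720 of the 1724, and 70 clusters higher in ileum and 30 higher in colon differed by at least 16-fold. In Nfat5fl/fl arrays 1262 clusters were called, 535 higher in ileum (2.11%) and 727 higher in colon (2.87%). By the adjusted p alone, 2859 clusters were higher in ileum (11.3%) and 4195 higher in colon (16.6%) in Nfat5IEC-KO, against 2022 (7.98%) and 2869 (11.3%) in Nfat5fl/fl. Regional differences past the limits were thus more numerous in Nfat5IEC-KO in both directions, and their typical standard error (median 0.137) came from the same 12 arrays.

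Of the clusters called, 1147 were called in both genotypes in the same direction, which is 66.5% of the Nfat5IEC-KO calls and 90.9% of the Nfat5fl/fl calls, and 0 were called in opposite directions. A further 577 were called in Nfat5IEC-KO alone, of which 573 had the same sign in Nfat5fl/fl and 488 passed the adjusted p there, so most missed the Nfat5fl/fl call by size. In Nfat5fl/fl alone 115 were called, 112 of them with the same sign in Nfat5IEC-KO. Across the 1839 clusters called in either genotype, the median absolute regional difference was 1.44 in Nfat5IEC-KO and 1.23 in Nfat5fl/fl, and it was larger in Nfat5IEC-KO for 1432 of them (77.9%), compared with 60.4% of all clusters. Over all clusters, which are not independent replicates, the regional differences of the genotypes had a Pearson correlation of 0.904.

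**Figure D1:**
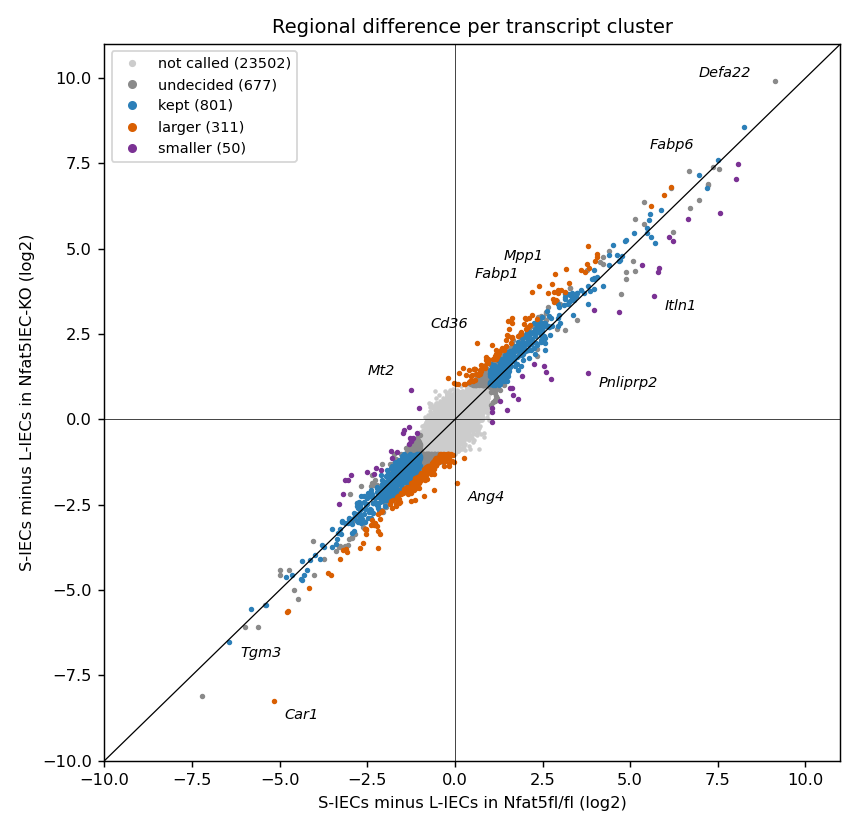
Each point is 1 transcript cluster, with its log2 regional difference (S-IECs minus L-IECs) in Nfat5fl/fl arrays on the x axis and in Nfat5IEC-KO arrays on the y axis, 3 arrays per group. Of the 1839 clusters called in either genotype, 801 were classed as kept, 311 as larger and 50 as smaller in Nfat5IEC-KO, and most of the called clusters (77.9%) lay farther from 0 in Nfat5IEC-KO.

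When the shift itself was tested, limma called 0 clusters at an adjusted p under 0.05, the smallest adjusted p being 0.0609 for Mt2. At an unadjusted p under 0.05 there were 2744 clusters (10.8%), 1148 with a positive shift (4.53%) and 1596 with a negative one (6.30%), and with at least a 1.5-fold shift as well 374 (1.48%) and 601 (2.37%). With eBayes trend and robust settings 84 clusters passed the adjusted p, 28 with a positive and 56 with a negative shift. Without replicate 2 of S-IECs Nfat5IEC-KO 239 clusters passed it. The p-values of single shifts given below are adjusted ones, so that no single shift passed 0.05, and counts of shifts at an unadjusted p under 0.05 are read against the shares over all clusters. Counts of calls in the gene lists are read against the shares of all clusters called. These were 2.85% (ileum) and 3.95% (colon) in Nfat5IEC-KO and 2.11% and 2.87% in Nfat5fl/fl.

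The 1839 called clusters were sorted by their shift. A difference was classed as larger or smaller in Nfat5IEC-KO when the shift had an unadjusted p under 0.05 and was at least 1.5-fold, and as kept when it was called in both genotypes and the 95% interval of its shift lay within 2-fold either way. Kept differences numbered 801 (43.6%, 345 higher in ileum and 456 higher in colon), larger ones 311 (16.9%, 109 and 202), smaller ones 50 (2.72%, 27 and 23), and 677 (36.8%) met none of these limits and are called undecided. The classes describe size and unadjusted p, and no member of them passed the adjusted p of the shift. Without replicate 2 of S-IECs Nfat5IEC-KO 502 differences were larger. Of the 361 that were larger or smaller, the genotypes differed more in S-IECs for 325 and more in L-IECs for 36. In most of them the genotypes were thus farther apart in ileum than in colon. Mpp1, which encodes a membrane scaffold protein, was among the 36: its regional difference was 4.25 against 2.85 in Nfat5fl/fl (shift adjusted p = 0.137), and its L-IECs levels were 5.68, 4.98 and 5.75 in Nfat5IEC-KO and 6.85, 6.62 and 6.72 in Nfat5fl/fl.

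Markers that set ileum apart were in place. Fabp6, the ileal bile acid binding protein (chr11:43596040-43601562), had levels of 12.32, 12.01 and 12.51 in S-IECs Nfat5IEC-KO and 4.49, 4.58 and 4.98 in L-IECs Nfat5IEC-KO. Its regional difference was 7.59 (standard error 0.16, 193-fold, adjusted p = 2.75e-12), and the shift from Nfat5fl/fl was 0.08 with a 95% interval from −0.40 to 0.57. The regions did not approach each other in any array, and the interval holds the shift to well under 2-fold. Of 11 measured genes of bile acid transport and signalling, 6 were called higher in ileum and 1 in colon, the same numbers as in Nfat5fl/fl, and 6 of the 7 were kept. The basolateral exporter subunit Slc51a (3.05), the ileal uptake carrier Slc10a2 (1.36) and the hormone Fgf15, by which ileum restrains bile acid synthesis in liver (3.38), were among the kept, as was Abcc3, an exporter that was higher in colon (−2.51). The median shift of this list was −0.01.

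Genes of fat uptake and chylomicron assembly had positive shifts throughout. In Nfat5IEC-KO 19 of the 22 measured genes were called higher in ileum and 1 in colon, against 17 and 1 in Nfat5fl/fl, with a median regional difference of 2.71 and 2.34. The shift was positive in 22 of 22, with an unadjusted p under 0.05 in 9 and 6 differences classed as larger. Of all clusters 4.53% had a positive shift at that p, and 16.9% of the called clusters were larger. The regional difference was the larger one in Nfat5IEC-KO in 77.9% of the called clusters, whatever their list. Cd36, a fatty acid receptor of the cell surface (chr5:17781690-17888959), had levels of 4.83, 5.90 and 4.61 in S-IECs Nfat5IEC-KO, 2.70, 2.89 and 2.99 in L-IECs Nfat5IEC-KO, 3.69, 3.65 and 4.02 in S-IECs Nfat5fl/fl and 3.33, 3.03 and 3.11 in L-IECs Nfat5fl/fl. Cd36 was a dim cluster: outside S-IECs Nfat5IEC-KO it lay below the median of the clusters with a gene symbol in every array. Within S-IECs Nfat5IEC-KO, replicate 3 (4.61) was below its array's median of 4.805 and replicate 1 (4.83) just above its median of 4.802. No detection limit is stated for dim clusters, so the fold differences of Cd36 are uncertain. All 3 S-IECs Nfat5IEC-KO arrays were above every other array, replicate 2 most of all. The regional difference of Cd36 was 2.25 (4.75-fold, adjusted p = 1.41e-05) in Nfat5IEC-KO and 0.63 (adjusted p = 0.108) in Nfat5fl/fl, a shift of 1.62 (95% interval 0.84 to 2.39, adjusted p = 0.228), and without that replicate the shift was 1.22.

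Fabp1, a fatty acid carrier of the cytosol, differed 13.2-fold between the regions in Nfat5IEC-KO and 4.63-fold in Nfat5fl/fl (shift 1.51, adjusted p = 0.259). Npc1l1, which takes up cholesterol, had a regional difference of 6.80 against 6.16 (shift adjusted p = 0.293), and Apoa4, a chylomicron apolipoprotein, 4.84 against 4.05 (shift adjusted p = 0.399). Other steps were nearly alike in both genotypes: Mttp, which loads lipid onto chylomicrons, was kept at 6.15 against 5.87, and Dgat1, which makes triglyceride, at 3.45 against 3.26.

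The enzymes of the brush border were divided. In either genotype 16 of 19 measured hydrolases were called higher in ileum, and 6 differences were larger and 8 kept. Treh, the enzyme that splits trehalose, had levels of 9.37, 9.61 and 9.59 in S-IECs Nfat5IEC-KO, 4.14, 4.56 and 4.63 in L-IECs Nfat5IEC-KO, 9.25, 8.74 and 8.81 in S-IECs Nfat5fl/fl and 5.27, 5.15 and 5.004 in L-IECs Nfat5fl/fl. Ileum was higher and colon lower than in the controls, and the regional difference was 5.08 against 3.79, a shift of 1.28 (95% interval 0.80 to 1.77, adjusted p = 0.155). Enpp3, an ectonucleotidase, had a regional difference of 4.41 against 3.18 (shift adjusted p = 0.228). Sucrase-isomaltase (Sis) was kept at 5.46 against 5.48, and aminopeptidase N (Anpep) at 7.16 against 6.96.

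All 11 measured genes of sugar uptake and fructose metabolism were called higher in ileum in Nfat5IEC-KO and 10 of them in Nfat5fl/fl, with 2 larger and 5 kept. The apical fructose carrier Slc2a5 had a regional difference of 2.65 against 2.04 (shift adjusted p = 0.305), while the glucose carrier Slc5a1 was kept at 2.45 against 2.54. Of 18 genes of amino acid and peptide uptake, 12 were higher in ileum in either genotype, 10 were kept, and the median shift was 0.00. Slc6a19, which takes up neutral amino acids, differed by 5.34 and 5.59. Slc1a5, a glutamine carrier higher in colon, was classed as larger, at −1.71 against −0.88 (shift adjusted p = 0.258). Among 21 genes of vitamin, iron and heme uptake, 9 had a positive shift with an unadjusted p under 0.05 and 0 a negative one, led by Rbp2, which holds retinol inside enterocytes (3.70 against 2.66, shift adjusted p = 0.228). The shares of all clusters with such shifts were 4.53% and 6.30%.

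**Figure D2:**
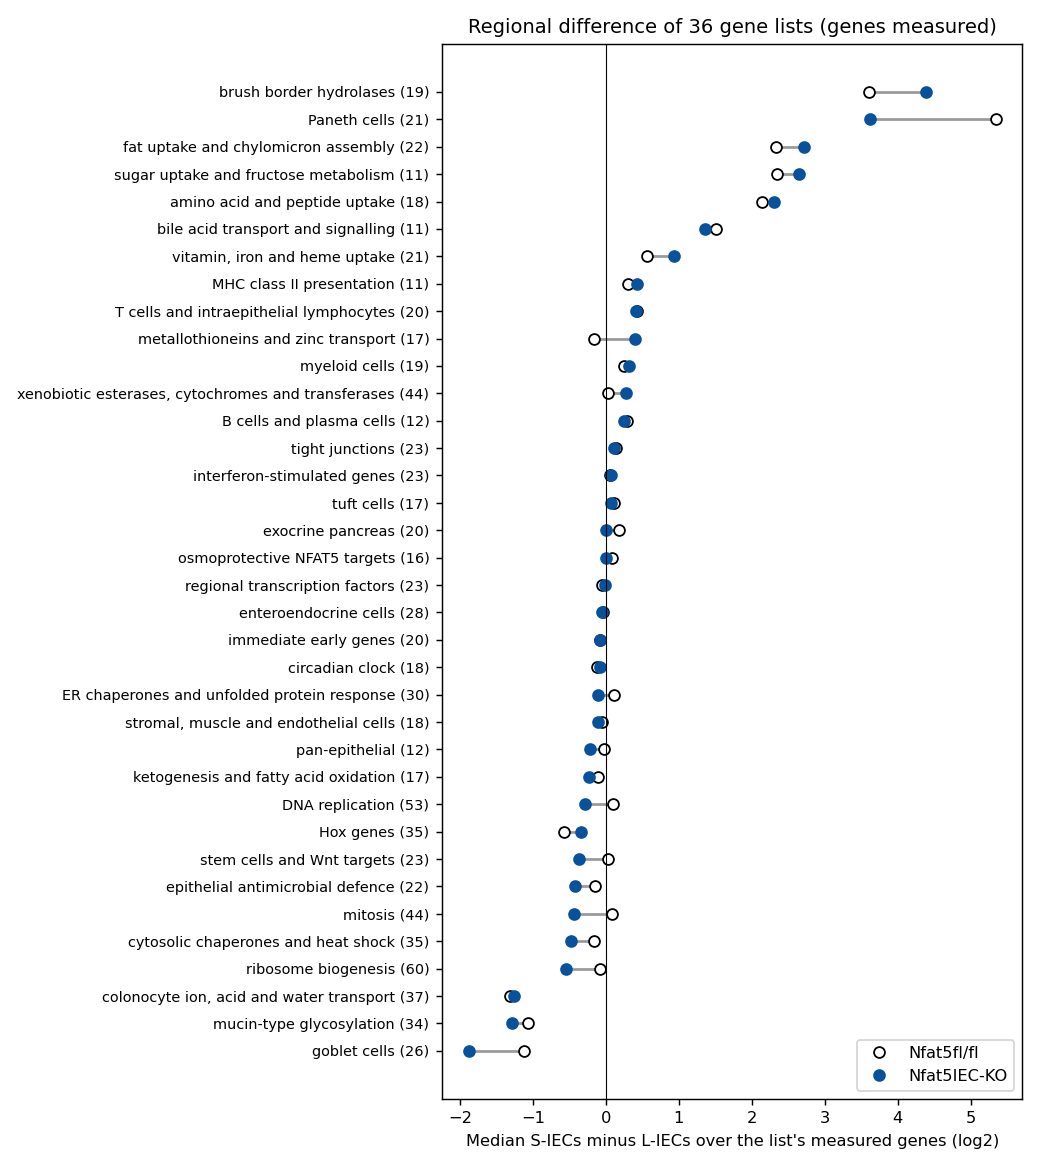
For each gene list the median log2 regional difference (S-IECs minus L-IECs) over its members is shown for Nfat5IEC-KO and for Nfat5fl/fl, 3 arrays per group. The median of fat uptake lay farther to the ileal side in Nfat5IEC-KO (2.71 against 2.34) and that of bile acid transport closer to 0 (1.36 against 1.51), that of Paneth cells lay closer to 0 (3.62 against 5.35), and that of goblet cells lay farther to the colonic side (−1.88 against −1.11).

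By their median, Paneth cell genes stood less far above colon in Nfat5IEC-KO than in Nfat5fl/fl. Of 21 measured genes, 14 were called higher in ileum and 3 in colon in Nfat5IEC-KO, against 17 and 2 in Nfat5fl/fl. The shares of all clusters called were 2.85% and 3.95% in Nfat5IEC-KO and 2.11% and 2.87% in Nfat5fl/fl. The median regional difference was 3.62 against 5.35, and 11 differences were classed as smaller and 1 as larger. The shift was negative in 18, with an unadjusted p under 0.05 in 12 of them. That share of negative shifts compares with 6.30% of all clusters. Mmp7, the protease that activates Paneth cell defensins (chr9:7692090-7699585), had levels of 7.41, 8.40 and 7.33 in S-IECs Nfat5IEC-KO, 4.62, 4.72 and 4.39 in L-IECs Nfat5IEC-KO, 8.76, 9.20 and 9.20 in S-IECs Nfat5fl/fl and 4.84, 4.23 and 4.04 in L-IECs Nfat5fl/fl. The S-IECs groups did not overlap, although replicate 2 of Nfat5IEC-KO came near the controls. The regional difference of Mmp7 was 3.13 (8.78-fold) against 4.68 (25.7-fold), a shift of −1.55 (95% interval −2.36 to −0.74, adjusted p = 0.237).

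Lysozyme (Lyz1) differed 132-fold between the regions in Nfat5IEC-KO and 260-fold in Nfat5fl/fl (shift −0.98, adjusted p = 0.307), and the intelectin Itln1, which binds microbial sugars, 12.3-fold and 51.3-fold (shift −2.06, adjusted p = 0.298). Mptx2, a pentraxin of Paneth cells, had regional differences of 4.32 and 5.80, and Pla2g2a, a phospholipase that attacks bacterial membranes, of 1.18 and 2.74. Without replicate 2 of S-IECs Nfat5IEC-KO the difference of Pla2g2a was 0.77, under 2-fold. Pnliprp2, a lipase, was not called in Nfat5IEC-KO, with a regional difference of 1.36 (adjusted p = 0.115) against 3.79. Its L-IECs levels in Nfat5IEC-KO were 5.18, 8.17 and 6.001. Without replicate 2 of L-IECs Nfat5IEC-KO that difference was 2.22 (adjusted p = 0.00213), so 1 colon array decided it. The α-defensins differed among themselves. Defa39 was classed as smaller, at 66.2-fold against 188-fold (shift −1.51, adjusted p = 0.256), with levels of 9.91, 11.06 and 9.88 in S-IECs Nfat5IEC-KO and 11.21, 11.47 and 11.41 in S-IECs Nfat5fl/fl. The cluster of Defa20, Defa32 and Defa2 had a shift of −0.60 and Defa24 of −0.41. Defa22 and Defa21 had positive shifts, with regional differences of 9.92 against 9.13 and 8.56 against 8.23. Yet their S-IECs means were lower in Nfat5IEC-KO as well (by log2 differences of −0.44 and −0.46), and the positive sign came from their low L-IECs levels, with means of 3.02 against 4.25 for Defa22 and 4.21 against 4.99 for Defa21. Defensin genes are near-identical copies, and Defa3, Defa17 and Defa23 share 1 cluster that the list counts for each of them, so the values of single defensins are uncertain.

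In bulk epithelium, fewer cells of a type and less RNA per cell cannot be told apart, and this holds for each cell type named here. Most stem cell genes, also of the crypt base, had negative shifts as well. Lgr5, the receptor that marks intestinal stem cells, had levels of 5.44, 6.24 and 5.54 in S-IECs Nfat5IEC-KO, 6.24, 6.26 and 5.995 in L-IECs Nfat5IEC-KO, 6.31, 6.67 and 6.89 in S-IECs Nfat5fl/fl and 5.84, 6.01 and 5.76 in L-IECs Nfat5fl/fl. In Nfat5fl/fl ileum stood above colon in every array (0.75, adjusted p = 0.0146), and in Nfat5IEC-KO the regions overlapped (−0.43, adjusted p = 0.131). The shift of Lgr5 was −1.18 (adjusted p = 0.230), and without replicate 2 of S-IECs the Nfat5IEC-KO difference was −0.68 and passed the test (adjusted p = 0.00759). A second cluster carries the symbol Lgr5, and the values are those of the brighter one.

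Across 23 measured stem cell genes and Wnt targets, 11 had a negative shift with an unadjusted p under 0.05 and 0 a positive one. The shares of all clusters with such shifts were 6.30% and 4.53%. The median regional difference was −0.37 in Nfat5IEC-KO and 0.03 in Nfat5fl/fl. Sox9, a crypt transcription factor, was higher in colon in both genotypes and classed as larger (−1.87 against −1.23, shift adjusted p = 0.353), and so was the receptor regulator Lrig1 (−1.64 against −1.004, shift adjusted p = 0.312). Olfm4, the ileal crypt glycoprotein, was 87.0-fold higher in ileum against 125-fold, a shift of −0.52 (adjusted p = 0.752).

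Goblet cell genes were higher in colon in both genotypes, with the larger differences in Nfat5IEC-KO. In Nfat5IEC-KO 22 of 26 were called higher in colon and 0 in ileum, compared with 16 and 0 in Nfat5fl/fl. The shift was negative in 25 of 26, with an unadjusted p under 0.05 in 14, and 11 differences were larger and 6 kept. Among all clusters 3.95% were called higher in colon in Nfat5IEC-KO and 2.87% in Nfat5fl/fl, and 6.30% had such a negative shift. Spink4, a protease inhibitor of goblet cells, had levels of 7.62, 8.36 and 7.62 in S-IECs Nfat5IEC-KO, 9.57, 10.25 and 9.95 in L-IECs Nfat5IEC-KO, 8.64, 9.43 and 9.10 in S-IECs Nfat5fl/fl and 9.77, 9.74 and 9.45 in L-IECs Nfat5fl/fl. The regions were close in Nfat5fl/fl (−0.60, adjusted p = 0.105) and separate in Nfat5IEC-KO (−2.06, 4.17-fold, adjusted p = 1.70e-05), a shift of −1.46 (adjusted p = 0.228). The disulfide isomerase Agr2, needed to fold mucin, had a regional difference of −2.07 against −1.18 (shift adjusted p = 0.258), and the kallikrein Klk1 of −4.10 against −3.28.

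Muc2, the main secreted mucin, had levels of 11.73, 12.61 and 12.19 in S-IECs Nfat5IEC-KO and 13.43, 13.47 and 13.43 in L-IECs Nfat5IEC-KO, a regional difference of −1.27 (adjusted p = 4.83e-05) against −0.92 in Nfat5fl/fl. Its shift of −0.34 had an adjusted p of 0.635, and its S-IECs groups overlapped through replicate 2. Ang4, an antimicrobial ribonuclease of secretory cells, had a regional difference of 0.05 in Nfat5fl/fl, where the regions overlapped, and of −1.86 in Nfat5IEC-KO (adjusted p = 0.0118), with an adjusted p of 0.341 for its shift. That difference missed the test without replicate 1 of S-IECs Nfat5IEC-KO (adjusted p = 0.0508) or replicate 2 of L-IECs Nfat5IEC-KO (adjusted p = 0.0580), and the shift was −1.91, or −1.24 without replicate 3 of L-IECs Nfat5fl/fl. Of 34 enzymes that build the sugar chains of mucins, 21 were higher in colon in Nfat5IEC-KO and 18 in Nfat5fl/fl, 15 were kept, and the median shift was −0.12. The fucosyltransferase Fut2 was kept at −4.16 against −4.35, whereas B3galt5, a galactosyltransferase, was classed as smaller (−1.77 against −3.14, shift adjusted p = 0.263).

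**Figure D3:**
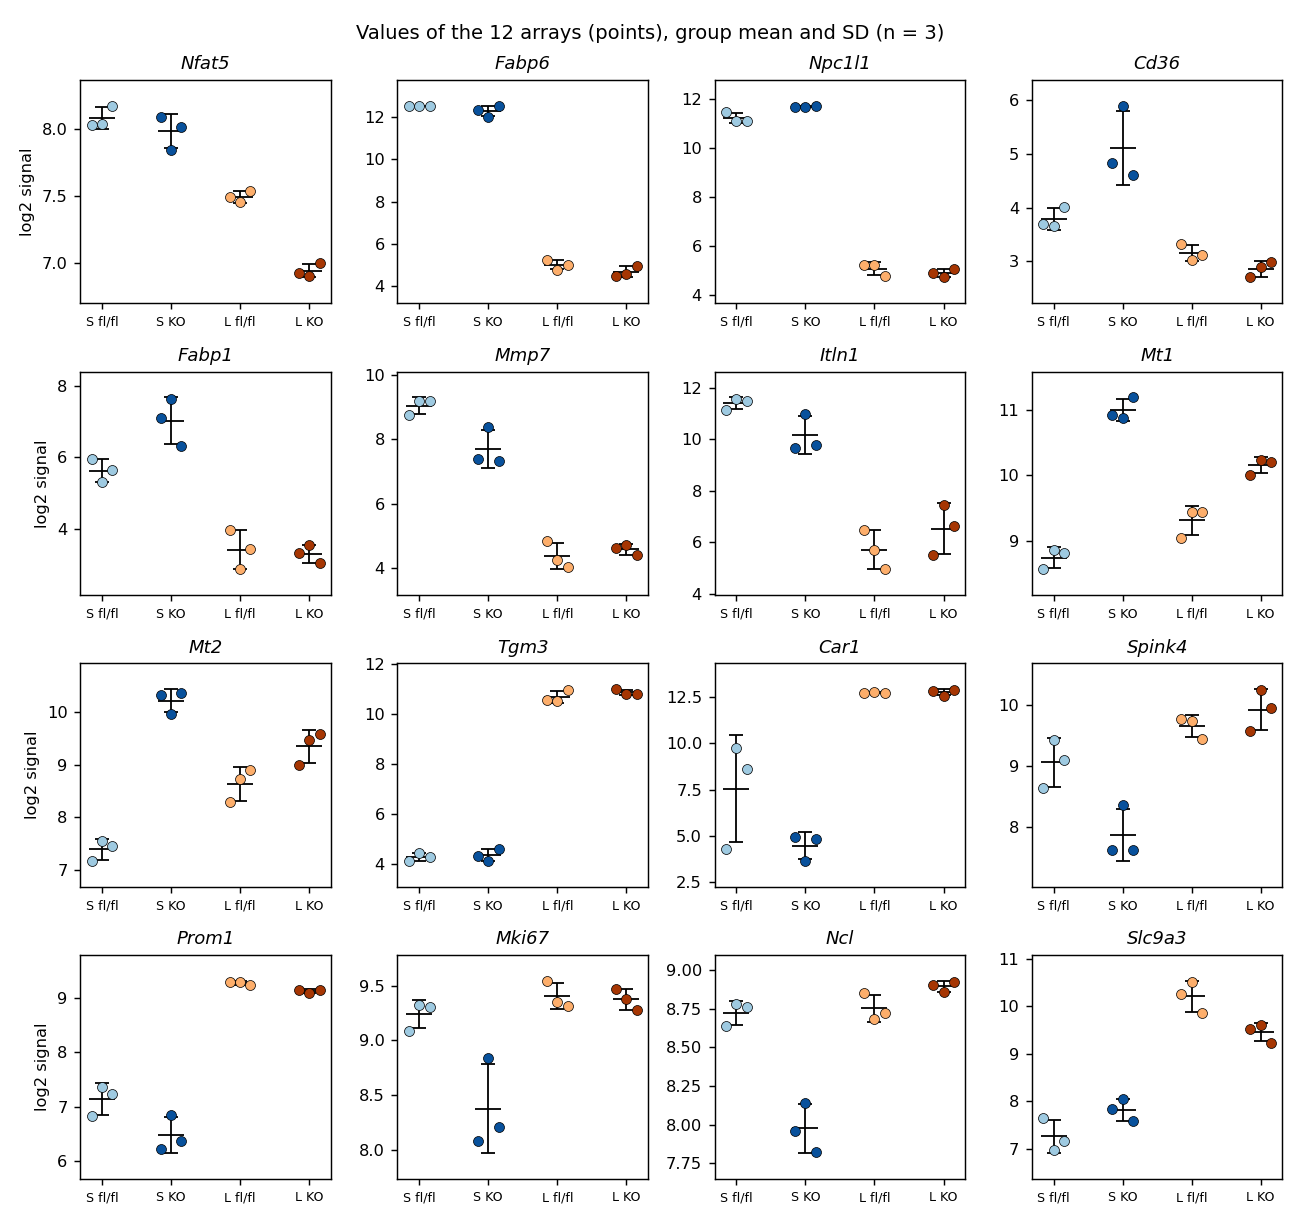
Log2 levels of single genes are plotted for each of the 12 arrays, by region and genotype, with a bar at each group mean of 3 arrays. For Mmp7 the S-IECs Nfat5IEC-KO arrays lay below the S-IECs Nfat5fl/fl arrays, with replicate 2 the highest of them (8.40). For Mt2 the S-IECs Nfat5IEC-KO arrays lay above all other arrays at 10.33, 9.97 and 10.36.

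Part of the genes of dividing cells were higher in colon in Nfat5IEC-KO, mostly by less than 2-fold. By the adjusted p alone, 21 of 44 mitosis genes were higher in colon and 0 in ileum in Nfat5IEC-KO, where 16.6% and 11.3% of all clusters were, against 0 and 1 in Nfat5fl/fl, where the shares of all clusters were 11.3% and 7.98%. The other 23 passed in neither direction in Nfat5IEC-KO. The shift was negative in 43 of 44, with an unadjusted p under 0.05 in 25, where 6.30% of all clusters had such a shift. At 2-fold 1 gene was called. That gene was Mki67, the proliferation marker (chr7:135689784-135716450), with levels of 8.08, 8.84 and 8.21 in S-IECs Nfat5IEC-KO, 9.47, 9.38 and 9.28 in L-IECs Nfat5IEC-KO, 9.09, 9.32 and 9.31 in S-IECs Nfat5fl/fl and 9.54, 9.35 and 9.32 in L-IECs Nfat5fl/fl. The 9 arrays outside S-IECs Nfat5IEC-KO lay together and the 3 of that group lay below them. The regional difference of Mki67 was −1.001 (2.00-fold, adjusted p = 0.000429) against −0.16 (adjusted p = 0.587), with a shift of −0.84 (adjusted p = 0.258), and it sits at the edge of the call, at −0.85 without replicate 1 of S-IECs.

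The promoter of Mki67 is shown because cell cycle genes share 2 short elements in this window: the CHR element, TTTGAA, and the CCAAT box. The 300 bases run from 250 before to 50 after the start site given by RefSeq (GRCm38.p6 chr7:135716330-135716629, minus strand), and capitals mark matches of either element on either strand. That start site lies inside the gene interval given above and not at its edge. The CHR letters were in 28 of 37 promoters matched for the mitosis list (75.7%) and in 17.9% of all 32851 promoters, CCAAT in 28 of 37 (75.7%) and 37.4%, and both in 25 of 37 (67.6%) and 6.95%. A match describes the letters and was not tested as a site.
Mki67: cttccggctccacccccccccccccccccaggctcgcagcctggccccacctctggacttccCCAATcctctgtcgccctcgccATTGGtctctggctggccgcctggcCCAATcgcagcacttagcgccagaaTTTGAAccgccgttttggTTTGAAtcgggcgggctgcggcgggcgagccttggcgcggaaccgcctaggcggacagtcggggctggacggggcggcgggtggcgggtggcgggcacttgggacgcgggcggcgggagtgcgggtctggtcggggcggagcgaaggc

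DNA replication genes differed by less. By the adjusted p alone, 18 of 53 were higher in colon and 1 in ileum in Nfat5IEC-KO, against 1 and 5 in Nfat5fl/fl. The 18 compare with 16.6% of all clusters, while 5 of 53 in Nfat5fl/fl is near the 7.98% of all clusters. Mcm5, a subunit of the replicative helicase, had a regional difference of −0.70 (adjusted p = 0.00632) against 0.23, a shift of −0.93 (adjusted p = 0.237).

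Most of the ribosome biogenesis genes, active where cells grow, were higher in colon in Nfat5IEC-KO. By the adjusted p alone, 38 of 60 genes were higher in colon and 1 in ileum in Nfat5IEC-KO, against 2 and 1 in Nfat5fl/fl. Over all clusters 16.6% and 11.3% were in Nfat5IEC-KO, and 11.3% and 7.98% in Nfat5fl/fl. The shift was negative in 59 of 60 genes, with an unadjusted p under 0.05 in 34, where 6.30% of all clusters had such a shift. Nucleolin (Ncl), a protein of the nucleolus (chr1:86344719-86359455), had levels of 7.96, 8.14 and 7.82 in S-IECs Nfat5IEC-KO, 8.90, 8.86 and 8.93 in L-IECs Nfat5IEC-KO, 8.64, 8.78 and 8.76 in S-IECs Nfat5fl/fl and 8.85, 8.68 and 8.72 in L-IECs Nfat5fl/fl. The regions overlapped in Nfat5fl/fl and stood apart in Nfat5IEC-KO, and all 3 S-IECs Nfat5IEC-KO arrays lay below every other array. The regional difference of Ncl was −0.92 (1.89-fold, adjusted p = 1.48e-05) against −0.03 (adjusted p = 0.908), a shift of −0.89 (95% interval −1.21 to −0.57, adjusted p = 0.137).

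Utp20, a factor of the small subunit, had a regional difference of −1.99 against −1.10 (shift adjusted p = 0.259), and nucleophosmin (Npm1) of −0.91 against −0.07 (shift adjusted p = 0.197). Nop56, a core protein of snoRNA particles, was the exception, being higher in ileum by 1.76 against 1.09 with a positive shift (adjusted p = 0.453). Small nucleolar RNA genes lie in its introns, so this value is uncertain. Among cytosolic chaperones, 21 of 35 were higher in colon and 2 in ileum by the adjusted p alone in Nfat5IEC-KO, against 4 and 2. The shares of all clusters were 16.6% and 11.3% in Nfat5IEC-KO and 11.3% and 7.98% in Nfat5fl/fl. The 4 in Nfat5fl/fl are near that share, and the counts of 2 lie below theirs. The co-chaperonin Hspe1 had a regional difference of −0.94 against −0.21 (shift adjusted p = 0.246), and the chaperonin subunit Cct3 of −0.62 against −0.01 (shift adjusted p = 0.241). Hspa1b, the inducible HSP70, was low in both regions of Nfat5IEC-KO, with levels of 5.35, 5.01 and 6.05 in S-IECs and 5.91, 5.58 and 6.15 in L-IECs against 6.43 to 7.87 and 6.45 to 8.26 in the controls, and its regional difference was −0.41 (adjusted p = 0.551).

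**Figure D4:**
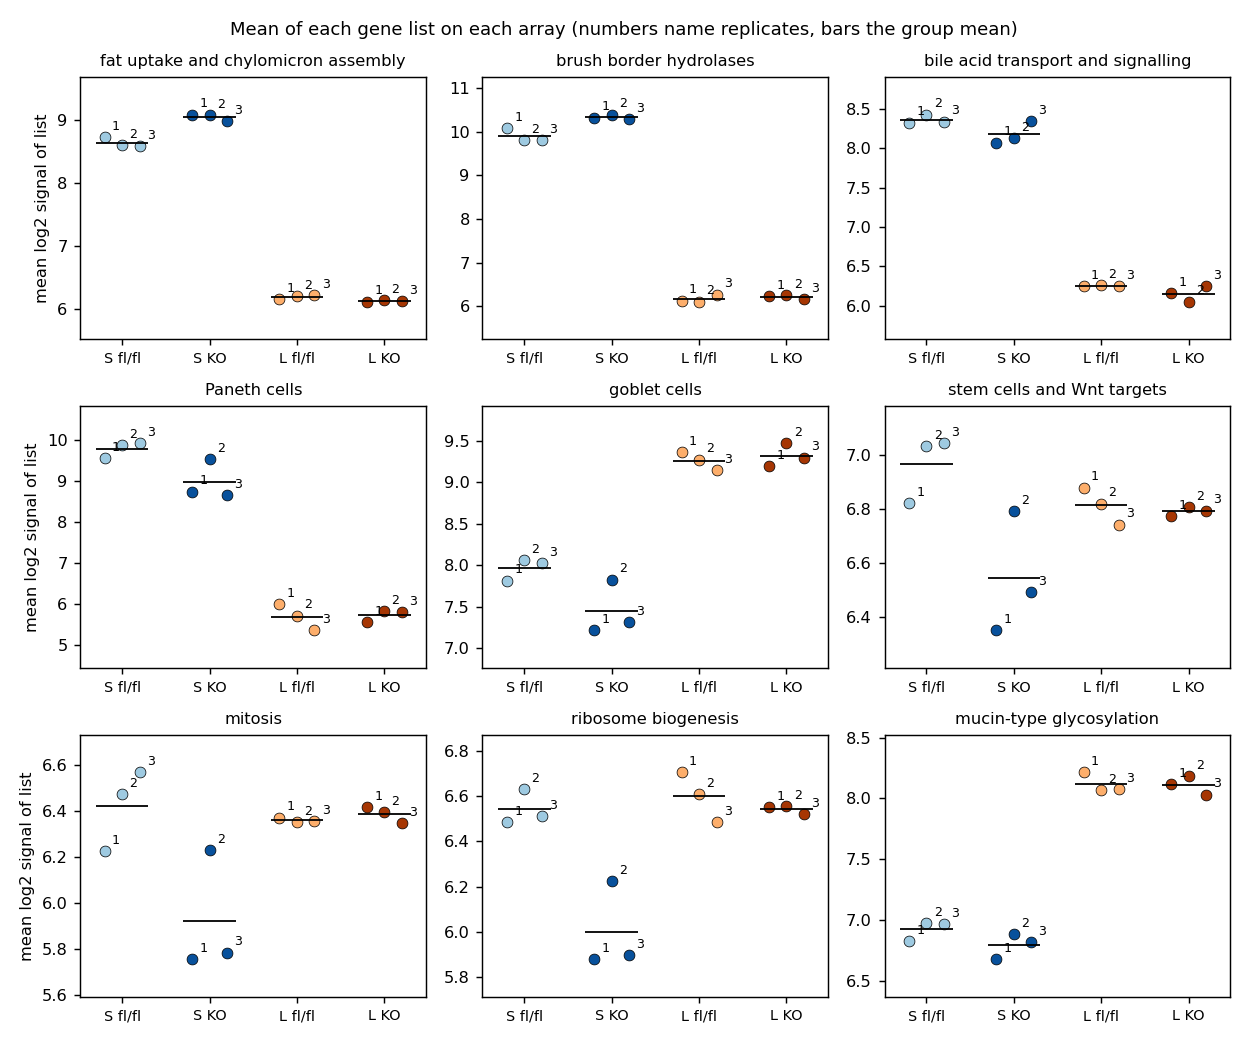
The mean log2 level over the members of a gene list is plotted for each of the 12 arrays, by region and genotype. For mitosis the S-IECs Nfat5IEC-KO arrays stood at 5.76, 6.23 and 5.79 against 6.23 to 6.57 in S-IECs Nfat5fl/fl and 6.35 to 6.42 in the L-IECs arrays, with replicate 2 nearest to the controls there and in the Paneth, goblet, stem cell and ribosome biogenesis lists.

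The list means showed where the S-IECs Nfat5IEC-KO group stood apart and where it overlapped its controls. Over the ribosome biogenesis genes the S-IECs Nfat5IEC-KO arrays had mean levels of 5.88, 6.22 and 5.90, and the other 9 arrays lay between 6.48 and 6.70. Over the Paneth genes they had 8.74, 9.52 and 8.64 against 9.55, 9.87 and 9.91 in S-IECs Nfat5fl/fl, and over the fat uptake genes 9.08, 9.08 and 8.97 against 8.72, 8.596 and 8.58. Over the goblet genes the S-IECs groups overlapped through replicate 2, with 7.215, 7.83 and 7.31 against 7.82, 8.07 and 8.03 in Nfat5fl/fl. The mitosis means overlapped narrowly through replicate 2 as well, at 6.2315 against a lowest S-IECs control of 6.2271. Replicate 2 was therefore the nearest to the controls in the crypt lists and not in fat uptake. Without it the median shift was −1.13 in place of −0.84 for Paneth cells, −0.77 in place of −0.58 for goblet cells, −0.69 in place of −0.50 for stem cells, −0.69 in place of −0.51 for mitosis and −0.58 in place of −0.46 for ribosome biogenesis. At the other end, the median shift was −0.58 for Paneth cells without replicate 3 of S-IECs Nfat5fl/fl and −0.40 for ribosome biogenesis without replicate 3 of S-IECs Nfat5IEC-KO. Without replicate 1 of S-IECs Nfat5IEC-KO it was −0.43 for goblet cells, −0.33 for stem cells and −0.42 for mitosis.

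Metallothioneins, which buffer zinc and copper inside cells, held the cluster with the smallest adjusted p of the shift, and Mt1 and Mt2 had regional differences of opposite sign in the genotypes. Mt2 (chr8:94172618-94173567) had levels of 10.33, 9.97 and 10.36 in S-IECs Nfat5IEC-KO, 8.99, 9.47 and 9.58 in L-IECs Nfat5IEC-KO, 7.17, 7.56 and 7.45 in S-IECs Nfat5fl/fl and 8.29, 8.74 and 8.91 in L-IECs Nfat5fl/fl. Colon stood above ileum in Nfat5fl/fl (−1.25, adjusted p = 0.000277) and ileum above colon in Nfat5IEC-KO (0.87, adjusted p = 0.00335), without overlap in either. The shift was 2.12 (95% interval 1.54 to 2.70, adjusted p = 0.0609). Over the arrays left out 1 at a time that adjusted p ran from 0.0121 to 0.233.

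Mt1 (chr8:94178883-94180327) had regional differences of −0.57 in Nfat5fl/fl (adjusted p = 0.00931) and 0.85 in Nfat5IEC-KO (adjusted p = 0.000338), a shift of 1.41 (adjusted p = 0.0732). Both genes were higher in Nfat5IEC-KO in each region, by 2.83 in S-IECs and 0.70 in L-IECs for Mt2 and by 2.26 and 0.84 for Mt1. Mt4 had −0.18 in Nfat5fl/fl, with overlap of the regions, and 1.22 in Nfat5IEC-KO (adjusted p = 0.000308), or 0.96 without replicate 1 of S-IECs Nfat5IEC-KO. The zinc carriers of the same list of 17 genes had shifts in both directions: Slc30a2, which loads zinc into vesicles, was higher in ileum by 2.92 against 3.47, Slc39a8, an importer, was higher in colon by a difference of −2.35 against −1.76, and the median shift was 0.05.

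The promoters of Mt1, Mt2 and Mt4 are shown because these 3 metallothionein genes lie near each other on chromosome 8 and had positive shifts. Mt3, which belongs to the same family, had a shift of −0.01 and levels of 4.30 to 4.79 over the 12 arrays. Each window runs from 250 bases before to 50 after the RefSeq start site on the plus strand of GRCm38.p6 (Mt1 chr8:94178839-94179138, Mt2 chr8:94172368-94172667, Mt4 chr8:94136954-94137253), and capitals mark the core of the metal response element, TGCACNC or TGCGCNC, on either strand. For Mt1 the start site of the window lies inside the gene interval given above and not at its first base. The windows held 3 matches for Mt1, 4 for Mt2 and 1 for Mt4. At least 1 match was present in 25.7% of all 32851 promoters and in 10 of 15 promoters of this list (66.7%). The matches describe the letters, and binding there was not tested.
Mt1: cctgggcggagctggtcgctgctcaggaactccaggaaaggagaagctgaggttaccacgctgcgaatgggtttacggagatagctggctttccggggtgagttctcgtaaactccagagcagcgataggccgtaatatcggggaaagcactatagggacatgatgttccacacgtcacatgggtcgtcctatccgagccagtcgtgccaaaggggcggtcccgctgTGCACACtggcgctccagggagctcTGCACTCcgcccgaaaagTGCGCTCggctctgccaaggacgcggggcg
Mt2: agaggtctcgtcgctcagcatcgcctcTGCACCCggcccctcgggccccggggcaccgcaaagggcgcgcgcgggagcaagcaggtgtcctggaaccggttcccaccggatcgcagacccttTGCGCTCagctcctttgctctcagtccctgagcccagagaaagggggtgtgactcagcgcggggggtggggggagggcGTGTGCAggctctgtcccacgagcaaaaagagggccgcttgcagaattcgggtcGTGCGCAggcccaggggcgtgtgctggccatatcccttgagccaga
Mt4: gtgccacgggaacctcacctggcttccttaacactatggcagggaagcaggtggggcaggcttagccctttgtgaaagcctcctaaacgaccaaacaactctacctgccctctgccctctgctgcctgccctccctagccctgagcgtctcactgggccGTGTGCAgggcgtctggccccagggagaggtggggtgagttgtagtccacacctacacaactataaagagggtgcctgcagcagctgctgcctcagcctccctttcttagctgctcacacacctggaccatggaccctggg

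Regional differences of opposite sign, each with an adjusted p under 0.05 in its genotype, were found in 9 clusters, each under 2-fold in at least 1 genotype. Besides Mt1 and Mt2, the coactivator of mitochondrial genes Ppargc1a had −0.55 in Nfat5fl/fl and 0.38 in Nfat5IEC-KO (shift adjusted p = 0.155), the keratin Krt36 −0.75 and 0.48 (adjusted p = 0.197) and the clock repressor Nr1d1 −0.44 and 0.45 (adjusted p = 0.228). For Nr1d1 the S-IECs levels were 9.22, 8.74 and 8.73 in Nfat5IEC-KO and 8.04, 8.10 and 8.18 in Nfat5fl/fl. The S-IECs groups did not overlap.

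On the colonic side, the genes for salt and acid transport gave like counts in both genotypes. Of 37 genes of ion, acid and water transport, 19 were called higher in colon and 5 in ileum in Nfat5IEC-KO, against 20 and 3, with 10 kept and a median shift of 0.07. Carbonic anhydrase 4 (Car4), which interconverts carbon dioxide and bicarbonate at the cell surface, was kept at −3.33 against −2.94, the water channel Aqp8 at −3.98 against −4.005, and the chloride-bicarbonate exchanger Slc26a3 at −1.95 against −1.85. Tgm3, a transglutaminase and no member of that list, was kept at −6.53 (92.4-fold) against −6.43. Colonic epithelium thus carried its usual markers in the Nfat5IEC-KO arrays.

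Car1, another carbonic anhydrase and the gene with the largest difference toward colon (chr3:14766214-14808365), had levels of 4.97, 3.65 and 4.84 in S-IECs Nfat5IEC-KO and 12.83, 12.56 and 12.85 in L-IECs Nfat5IEC-KO. The regional difference was −8.26 (standard error 0.95, 306-fold, adjusted p = 1.62e-05) against −5.17. In S-IECs Nfat5fl/fl the levels were 4.32, 9.75 and 8.59, so that 1 control array resembled the Nfat5IEC-KO arrays and the others lay between the regions. Its shift of −3.09 (95% interval −5.97 to −0.20, adjusted p = 0.429) rests on those control arrays, and ran from −4.70 without the first to −1.99 without the second.

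The sodium-proton exchanger Slc9a3 was the 1 gene of that list classed as smaller. Its levels were 7.84, 8.04 and 7.58 in S-IECs Nfat5IEC-KO, 9.53, 9.61 and 9.24 in L-IECs Nfat5IEC-KO, 7.65, 6.97 and 7.17 in S-IECs Nfat5fl/fl and 10.27, 10.51 and 9.87 in L-IECs Nfat5fl/fl. Colon exceeded ileum 3.11-fold in Nfat5IEC-KO and 7.74-fold in Nfat5fl/fl, a shift of 1.32 (adjusted p = 0.219) to which both regions contributed. The sodium channel subunit Scnn1a was classed as larger, at −3.21 against −2.57 (shift adjusted p = 0.236), as was the cotransporter Slc12a2, at −1.57 against −0.61 (shift adjusted p = 0.258).

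Transcription factors that define gut regions were mostly kept. Of 23 measured, 5 were called higher in ileum and 5 in colon in Nfat5IEC-KO, against 5 and 7 in Nfat5fl/fl. Of the 12 called in either genotype 9 were kept, and 0 were larger or smaller. The ileal factors Maf (4.36 against 3.97), Gata5 (3.92 against 4.22), Gata4 (1.48 against 1.27) and Hnf4g (2.71 against 2.36) and the colonic Pparg (−3.37 against −3.26) were kept, and Cdx2, which all intestine uses, had a regional difference of −0.01 in Nfat5IEC-KO. Klf4, a factor of differentiated cells, had −0.46 against −1.001 (shift adjusted p = 0.237), with higher levels in S-IECs Nfat5IEC-KO than in their controls. Of 35 Hox genes, which mark position along the body axis, 12 were called higher in colon and 0 in ileum, against 11 and 0, with 7 kept. Hoxa13, of the hindgut, was kept at −2.11 against −1.72, while Hoxa7 was the 1 classed as smaller (−1.60 against −2.31, shift adjusted p = 0.258).

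Enzymes of xenobiotic metabolism split by region. Of 44 measured, 14 were higher in ileum and 9 in colon in Nfat5IEC-KO, against 11 and 10, and 12 had a positive and 4 a negative shift with an unadjusted p under 0.05, where 4.53% and 6.30% of all clusters did. The cytochromes Cyp2b10 (15.1-fold against 5.28-fold, shift adjusted p = 0.343), Cyp2d26 (5.35-fold against 3.07-fold, shift adjusted p = 0.197) and Cyp2c66 (2.87-fold against 1.18-fold, shift adjusted p = 0.228) were classed as larger on the ileal side. The sulfotransferase Sult1a1 was classed as larger on the colonic side (30.7-fold against 18.0-fold, shift adjusted p = 0.248). Cytochrome genes belong to families of close copies, and the sources used here do not say how far they share probes.

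The osmoprotective genes, the class best known as NFAT5 targets, gave similar counts of calls in the genotypes. Of 16 measured, 3 were higher in ileum and 3 in colon in Nfat5IEC-KO, against 2 and 2, and the median shift was −0.04. The kinase Sgk1 was higher in ileum by 1.16 against 1.26, although its level was lower in Nfat5IEC-KO in both regions (−0.89 for S-IECs, −0.79 for L-IECs). The amino acid carrier Slc38a2 was higher in colon, at −1.12 against −0.61 (shift adjusted p = 0.314). Nitric oxide synthase 2 (Nos2) was kept at 3.51 against 3.39.

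Defence genes outside the Paneth list varied. The lectin Reg3g, which binds bacterial wall, had levels of 11.15, 10.94 and 10.86 in S-IECs Nfat5IEC-KO and 6.25, 6.72 and 6.81 in L-IECs Nfat5IEC-KO, a regional difference of 4.39 against 3.76 (shift adjusted p = 0.548), and Reg3b of 3.37 against 2.99 (shift adjusted p = 0.819). Tjp1, the junction scaffold ZO-1, had a regional difference of −0.02 (adjusted p = 0.892) against −0.04. Of 23 tight junction genes, 1 was called higher in ileum, Cldn4 (1.16 against 0.68), and 2 in colon, Cldn8 (−3.48 against −2.94) and Cgnl1 (−1.74 against −1.45). In Nfat5fl/fl 0 and 2 were called. These counts are too small to be told from the shares of all clusters, 2.85% and 3.95% in Nfat5IEC-KO and 2.11% and 2.87% in Nfat5fl/fl.

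Markers of other cells in the preparations were counted in the same arrays. In Nfat5IEC-KO 3 of 20 T cell and intraepithelial lymphocyte genes were called higher in ileum and 0 in colon, as in Nfat5fl/fl, with list means of 4.81 to 5.12 in S-IECs and 4.30 to 4.48 in L-IECs of Nfat5IEC-KO and a median shift of 0.07. Gzma, a granzyme of those cells, had a regional difference of 1.83 against 1.48. For B cells and plasma cells 0 of 12 were called, with list means of 3.69 to 4.08 over the 6 Nfat5IEC-KO arrays. For myeloid cells 1 of 19 was called higher in ileum and 1 in colon, against 3 and 0 in Nfat5fl/fl, and for stromal, muscle and endothelial cells 0 and 1 of 18 in either genotype. Over all clusters 2.85% and 3.95% were called in Nfat5IEC-KO and 2.11% and 2.87% in Nfat5fl/fl, and counts of 1 are near those shares. For exocrine pancreas 2 were called higher in ileum and 1 in colon of 20, the colonic one being Cela1 (−2.53 against −2.80). The median shifts of these lists lay between −0.04 and 0.07, and their part in the regional differences was not tested. Tuft cell genes (0 of 17 called) and enteroendocrine genes (1 of 28 higher in ileum and 6 in colon) had median shifts of 0.02 and −0.02. Over 12 pan-epithelial genes the list means of the Nfat5IEC-KO arrays were 10.08 to 10.19 in S-IECs and 10.24 to 10.26 in L-IECs.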

How the data were processed

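The authors deposited log2 expression values per transcript cluster, made in Transcriptome Analysis Console against mm10. The sources used here give neither its version nor the normalization, nor scan dates, and batches could not be tested. Groups came from the sample titles, and columns matched to no sample numbered 0. Clusters with 1 symbol (23521) or several (1820) all entered the fit, dim ones included, and 23328 matched RefSeq GRCm38.p6, which gave positions and promoter sequences. In R 4.3.3, limma 3.58.1 (lmFit, eBayes) fitted 4 group means on 12 arrays. The script was tested on simulated data. The number of arrays limits the precision. Replicate numbers were not used to pair S-IECs with L-IECs in the main fit. The deviations of same-numbered arrays had correlations of −0.038 to 0.053, which do not decide whether they share a mouse.

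Gene lists used 1 cluster a gene, the one with the highest mean. The comparison, the members and the lists were chosen with earlier results of these data known, and no list was given a p-value. Named genes were those the study names, the 12 largest called regional differences in each direction without overlap, the 10 largest smaller and 10 largest larger differences, up to 6 changes of sign, and for each list up to 4 called members with the largest difference and the 2 with the smallest shift p. Predicted genes, immune receptor segments and small RNAs were not named. Other list members, such as Dgat1, Sis, Slc5a1, Agr2, Slc12a2, Car4, Aqp8, Slc26a3, Slc10a2, Gata4 and Cdx2, were chosen for mention after their values had been seen. Alternatives were the replicate number as a block, the 6 arrays of a genotype alone, other eBayes settings, array weights, 2 rescalings, a filter on dim clusters, every cluster, other limits and leaving out each array.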

Additional observations from a re-analysis of the deposited data

How the results depend on the processing

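The replicate block gave 724 calls higher in ileum and 1001 higher in colon in Nfat5IEC-KO, 0 shifts past the adjusted p and 314 larger, 52 smaller and 819 kept differences, and it moved no count of calls by over 1.5 times. The numbers pair no mice in the sources used here. After Benjamini-Hochberg adjustment and with 2-fold, the methods' t-test called 676 and 915 clusters in Nfat5IEC-KO and 486 and 650 in Nfat5fl/fl. Among 185 named clusters, 165 passed the adjusted p between the regions in Nfat5IEC-KO, whatever their fold. Of 3459 repeats of those 165 results, 81 no longer passed the adjusted p and 0 reversed. The 2-fold limit was not part of these counts. Of 3501 repeats of the shifts of the 185 clusters, 58 passed the adjusted p and 0 reversed. Quantile normalization and median centring moved the median of all clusters by at most 0.03.

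Shifts past the adjusted p numbered 84 with trend and robust, 1 with median centring, 2 with the filter on dim clusters and 1 over every cluster. Leaving out 1 array gave 0 to 239 of them, 239 without S-IECs Nfat5IEC-KO replicate 2 and at most 2 without any other. Shifts at an unadjusted p with 1.5-fold ran from 373 to 564 (positive) and from 503 to 948 (negative), and larger differences from 237 to 502, with each upper value reached without that array. The dim filter left 188 positive shifts, and every cluster gave 771 positive and 1010 negative shifts and 113 smaller differences. Those counts are over 41345 clusters in place of 25341. At 1.5-fold the calls were 1497 and 2499 in Nfat5IEC-KO and 1161 and 1701 in Nfat5fl/fl, and at 4-fold 271 and 250 and 224 and 186. An interval within 1.5-fold left 276 kept, and an unadjusted p under 0.01 left 24 smaller and 204 larger. The share of called clusters with the larger difference in Nfat5IEC-KO stayed between 74.0% and 80.3%. With 3 arrays a group the standard error of a shift had a median of 0.193, so shifts well under 2-fold were often undecided. Dim clusters have no stated detection limit.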

Other observations

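Among lists not described above, the genes of ketogenesis and fatty acid oxidation were called higher in ileum for 1 and in colon for 2 of 17 in Nfat5IEC-KO. Angptl4, an inhibitor of lipoprotein lipase, differed by 2.98-fold toward ileum in Nfat5IEC-KO and 5.79-fold in Nfat5fl/fl (limma adjusted p of the shift = 0.237). Its S-IECs levels were 5.86, 6.20 and 6.43 in Nfat5IEC-KO and 7.09, 6.96 and 6.97 in Nfat5fl/fl, without overlap. Of 30 genes of ER chaperones and the unfolded protein response, 6 had a negative and 1 a positive shift at an unadjusted p under 0.05. Over all clusters 6.30% and 4.53% did. Pdia6, a disulfide isomerase of the ER, had a regional difference of −0.85 (limma adjusted p = 0.000315) against −0.01 (adjusted p = 0.981). The antigen presentation genes of MHC class II had 1 of 11 members called in Nfat5IEC-KO, in the direction of ileum, and the interferon-stimulated genes 1 in each direction of 23, with median shifts of 0.07 and 0.04. Of 18 circadian clock genes 0 were called at 2-fold. By the adjusted p alone, 5 clock genes were higher in ileum and 1 in colon in Nfat5IEC-KO, against 1 and 5 in Nfat5fl/fl. Over all clusters the shares were 11.3% and 16.6% in Nfat5IEC-KO and 7.98% and 11.3% in Nfat5fl/fl, so that the counts of 1 lie below the share of all clusters. Npas2, a clock activator, had a regional difference of 0.71 (limma adjusted p = 0.000240) against 0.19 (adjusted p = 0.290). Of 20 immediate early genes, 1 was called in each direction in either genotype, and their median shift was 0.03. At 2-fold, 2.85% of all clusters were called higher in ileum and 3.95% higher in colon in Nfat5IEC-KO, and 2.11% and 2.87% in Nfat5fl/fl. Called counts of 1 or 2 in the lists of this paragraph are too small to be told from those shares.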
